A study of Equus caballus with 24 samples.

Results

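The pituitary and the long bone epiphysis of juvenile Debao ponies (DPs) were compared across all genes. The members were taken by their group labels alone, which gave 6 of the 24 libraries of the series, namely DPPJ1, DPPJ2 and DPPJ3 from the pituitary and DPLBJ1, DPLBJ2 and DPLBJ3 from the epiphysis, the end of a long bone. Reads were counted on 24232 genes, and the 14540 genes with enough reads in these 6 libraries were tested. The DP is a small horse breed. All animals were female, no treatment is given, and juveniles were under 3 years of age. The other 18 libraries came from the same tissues of adult DPs (over 3 years; DPPA and DPLBA) and of juvenile and adult Mongolian horses (MHs; MHPJ, MHLBJ, MHPA and MHLBA), with 3 libraries in each of the 8 groups. The tissue pieces were ground whole, so the libraries are bulk RNA, in which fewer cells of a type and less RNA per cell cannot be told apart. The study's methods describe both tissues as taken from 3 juvenile DPs, so the 6 libraries are not from 6 separate ponies. The labels do not say whether a pituitary and a long bone library with the same number came from the same pony. The main fit therefore treats the tissues as unpaired, and its p-values rest on the spread among the 3 libraries of each tissue.

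The anterior pituitary holds the hormone cells, which make growth hormone, prolactin, adrenocorticotropic hormone, thyrotropin and the gonadotropins, store them in dense granules and release them on signals from the hypothalamus. The posterior lobe holds axon endings of hypothalamic neurons and their glia, the pituicytes. A growing epiphysis holds cartilage, the growth plate in which chondrocytes divide, enlarge and are replaced by bone, the osteoblasts, osteocytes and osteoclasts that make and remodel it, and marrow with blood-forming cells and adipocytes. Growth hormone acts on the growth plate through its receptor and through insulin-like growth factor 1.

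Between 18269442 and 21048794 reads were counted per DPPJ library and between 13922477 and 18806885 per DPLBJ library. The 10 most abundant genes took 11.9 ± 1.27% (SD, n = 3) of the reads in DPPJ and 13.9 ± 5.48% (SD, n = 3) in DPLBJ (exact two-sided permutation test, p = 0.6, where 3 libraries against 3 can give no p below 0.1). The labels were checked against defining markers. All 3 DPPJ libraries held the anterior pituitary hormones, and all 3 DPLBJ libraries held the bone matrix genes. The DPLBJ libraries were much less alike than the DPPJ libraries. The median SD of the log2 level of a gene was 0.206 in DPPJ and 0.520 in DPLBJ, and 787 genes (5.41%) had a more than 8-fold range in DPLBJ against 105 (0.722%) in DPPJ. Among the DPLBJ libraries, DPLBJ2 was the farthest from their median in 6834 genes, DPLBJ1 in 4959 and DPLBJ3 in 2929. DPLBJ1 had almost no reads of erythroid and neutrophil genes and few of hyaline cartilage. In all, 50 genes were above 10 CPM in DPLBJ2 and DPLBJ3 with at most 3 reads in DPLBJ1, against 0 genes for either of the other arrangements. In the pituitary, DPPJ2 held the most reads of glia and of the posterior lobe. Among the groups used for comparison below, anterior pituitary hormones were at or near 0 in the 3 MHPJ libraries, DPPA1 and MHPA1. Their labels name the pituitary but not a lobe.

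Of the 14540 tested genes, 4270 (29.4%) were called as differentially expressed genes (DEGs), which needed a Benjamini-Hochberg adjusted p under 0.05 in edgeR's quasi-likelihood test and a fold change over 2. Of these, 2229 (15.3%) were higher in the pituitary and 2041 (14%) were higher in the long bone. The balance depended on the scaling. Without TMM normalization 3076 genes (21.2%) were higher in the pituitary and 1490 (10.2%) in the long bone, and the median log2 fold change of all tested genes moved from -0.03 to 0.33. Log2 fold changes below are DPPJ minus DPLBJ, so that positive values are higher in the pituitary. Fold changes were large. With genes at 0 reads in one tissue taken at a lower bound, 1167 genes were more than 8-fold and 317 more than 64-fold higher in the pituitary, and 787 and 155 were so in the long bone. No read was counted in any DPLBJ library for 90 of the genes higher in the pituitary, and in any DPPJ library for 10 of those higher in the long bone. The libraries of the tissues were fully apart for 7333 genes (50.4%). Each library was also left out in turn, and a value given without a library comes from the fit to the remaining 5. When any DPPJ library was left out the number of DEGs fell to 2389, 2585 and 2301 (15.9%, 17.3% and 15.3% of those tested) for DPPJ1, DPPJ2 and DPPJ3, when DPLBJ3 was left out it was 3343 (22.4%), without DPLBJ2 4412 (29.6%), and without DPLBJ1 5355 (35.5%). In each of these 6 reduced fits, 1357 of the 2229 and 709 of the 2041 genes were called again in the same direction. A gene near absent from one tissue passed the filter on low counts through the other, so the counts of called members in lists of genes made mainly in one tissue are a description. Counts of called members below stand beside 15.3% of all tested genes higher in the pituitary and 14% higher in the long bone.

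**Figure D1:**
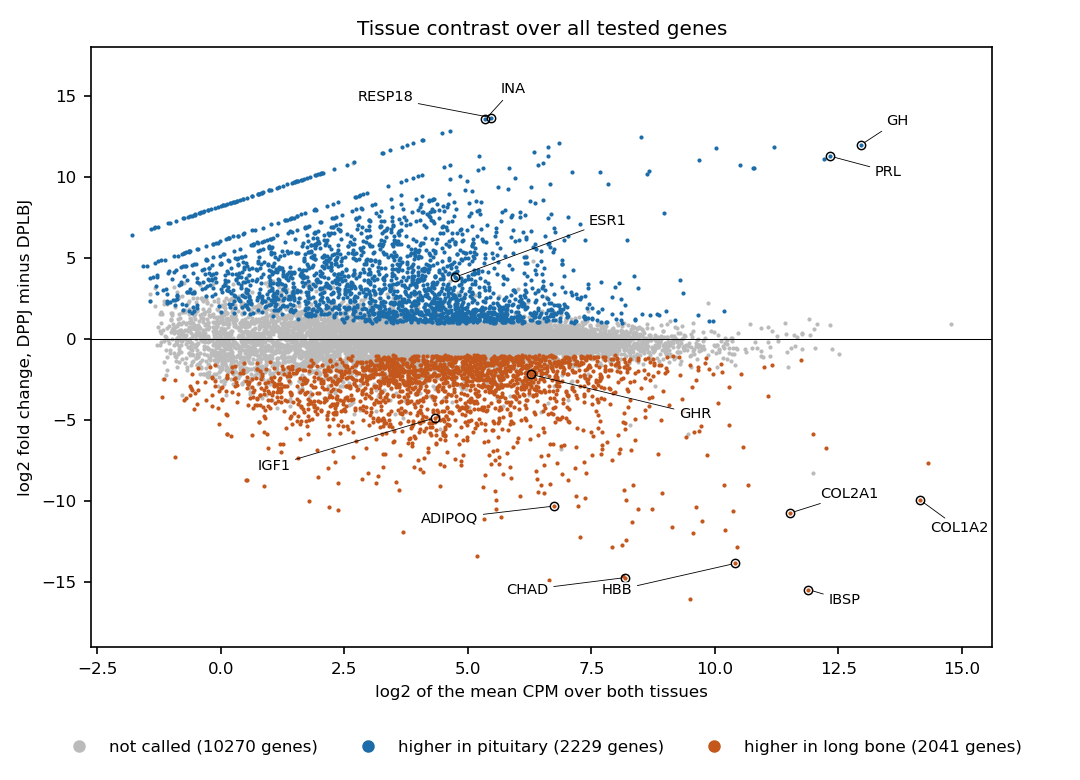
Log2 fold change of each of the 14540 tested genes (DPPJ minus DPLBJ, vertical axis) against log2 of its mean CPM over both tissues (horizontal axis), with genes called higher in the pituitary in blue (2229), higher in the long bone in orange (2041) and not called in grey. GH and PRL lie at the upper right and COL1A2, IBSP and COL2A1 at the lower right, while the straight lines of points at the upper left are genes with 0 or few reads in the long bone.

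The hormones were the most abundant transcripts that set the pituitary apart. In RPKM, the authors' reads scaled to gene length and library size, growth hormone (GH, ENSECAG00000009154) stood at 13174, 17634 and 22757 RPKM in DPPJ against 0.81, 8.78 and 0.81 RPKM in DPLBJ. The lowest pituitary library was far above the highest long bone library, DPLBJ2, and the log2 difference was 11.99 ± 1.46 (SE, adjusted p = 0.00179). Prolactin (PRL), the lactotroph hormone, stood at 13611, 9595 and 7002 RPKM against 0.07, 8.53 and 1.17 RPKM, with a log2 difference of 11.27 ± 1.76 (SE, adjusted p = 0.00438). POMC, the precursor of adrenocorticotropic hormone and melanotropin, stood at 15134, 6511 and 3284 RPKM against 1.59, 10.3 and 1.48 RPKM, and it varied most among the ponies of the abundant hormones, with DPPJ1 highest and DPPJ3 lowest. The gene listed as CG, which the file describes as the glycoprotein hormone alpha chain shared by thyrotropin and the gonadotropins, stood at 10395, 5265 and 4186 RPKM against 0, 7.37 and 2.01 RPKM (log2 fold change 10.74, SE 1.53, adjusted p = 0.00313).

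In RPKM the hormone-specific beta chains were lower, with FSHB at 537, 338 and 510.3 RPKM and TSHB at 7.47, 19.5 and 8.42 RPKM in DPPJ. FSHB, the beta chain of follicle-stimulating hormone, had 6563, 4470 and 7396 reads in DPPJ and 1, 7 and 1 reads in DPLBJ (log2 fold change 10.30, SE 0.74, adjusted p = 0.000352). TSHB, the beta chain of thyrotropin, had only 80, 226 and 107 reads against 0, 0 and 1, a ratio of the summed reads of 265-fold (95% exact counting interval 47.3 to 10486). Of 8 listed symbols 5 were found, and these 5 hormones were all called higher in the pituitary (15.3% of all tested genes were), also when any single library was left out. Their median log2 fold change was 10.55, against -0.03 over all tested genes. No gene with the symbol LHB or CGA was found.

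NNAT, ARHGAP36 and EPCAM were also among the 10 most abundant genes higher in the pituitary. NNAT, an imprinted gene of neuroendocrine cells, stood at 4682, 2721 and 4104 RPKM against 2.11, 3.03 and 0.96 RPKM. ARHGAP36, a regulator of protein kinase A and hedgehog signalling, stood at 526, 586 and 792 RPKM against 0.1, 0.21 and 0.13 RPKM (log2 fold change 11.76, SE 0.52, adjusted p = 0.00016). EPCAM, an epithelial adhesion molecule, differed less, at 554, 559 and 628 RPKM against 3.28, 52.7 and 43.1 RPKM, and DPLBJ2 and DPLBJ3 held it too. Its log2 difference was 3.86 ± 0.90 (SE, adjusted p = 0.0181), and it was not called without any single DPPJ library or DPLBJ3 (3.81 to 4.02, adjusted p = 0.0529 to 0.0627).

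The 5 genes with the largest fitted differences had few or no reads in the long bone, where the fitted value depends on how zeros are treated. RESP18, a protein of endocrine secretory granules, had 2504, 1214 and 2067 reads in DPPJ and none in DPLBJ, so it was at least 409.8-fold higher when 3 reads are taken as the limit in each DPLBJ library. INA, the neuronal filament protein internexin alpha, had 1852, 1653 and 1913 reads against none (at least 379.7-fold), and PON1, paraoxonase 1, had 827, 889 and 1645 reads against none (at least 229.7-fold). PPP1R17, a phosphatase inhibitor, had 668, 677 and 927 reads against none and was at least 157-fold higher. DLK1, an imprinted membrane protein of growing and endocrine tissues, had 13100, 14443 and 21004 reads against 2, 3 and 0 reads (log2 fold change 12.47, SE 0.75, adjusted p = 0.000274). These genes were picked for the largest change among genes over 10 CPM in every DPPJ library, so the gap between the tissues was set by that choice.

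**Figure D2:**
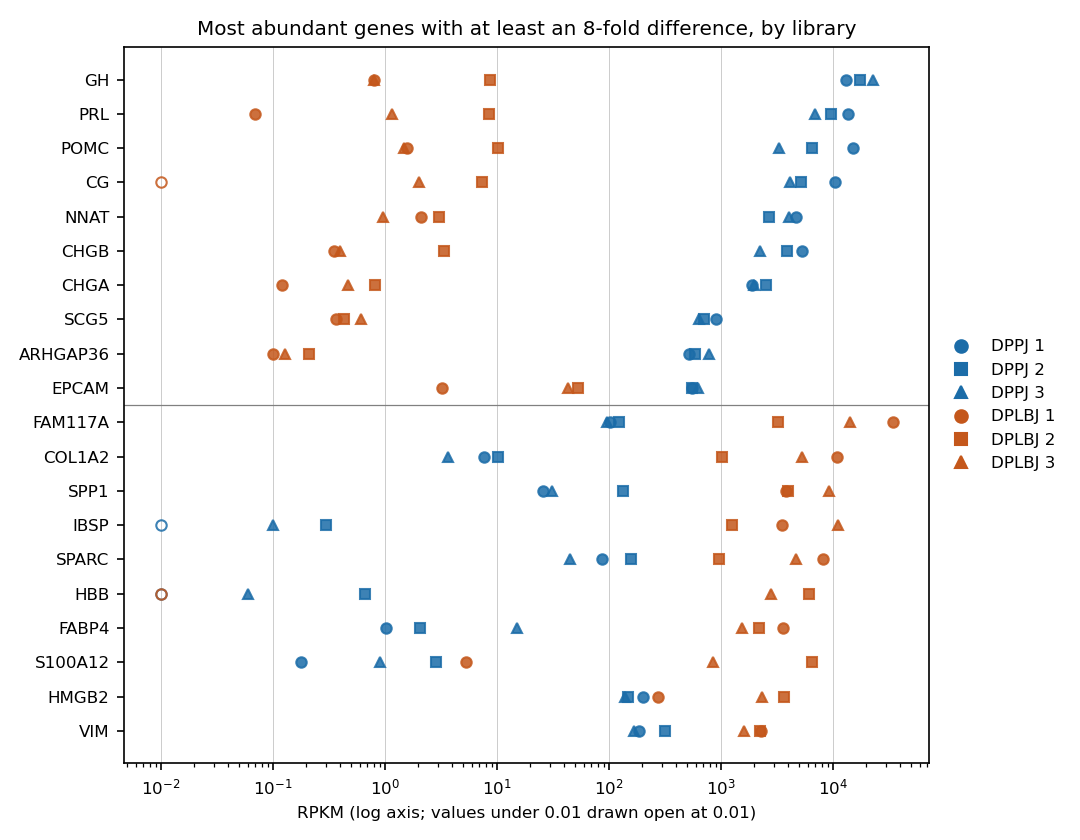
RPKM in each of the 6 libraries (log axis) of the 10 most abundant genes higher in the pituitary (above the line) and the 10 higher in the long bone (below it), with DPPJ in blue and DPLBJ in orange and the replicate given by the marker shape. The tissues do not overlap except in HBB, for which DPLBJ1 and DPPJ1 are at 0, and in S100A12 and HMGB2 DPLBJ1 lies closer to the pituitary than to the other long bone libraries.

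Receptors for the hypothalamic factors and for feedback hormones followed the hormones. Of 9 tested receptors, 8 were higher in the pituitary and 0 in the long bone (median log2 fold change 6.12, or 5.78 with GNRHR at its lower bound). GHRHR, through which growth hormone releasing hormone acts on somatotrophs, stood at 111, 260.1 and 179 CPM in DPPJ (CPM, the reads scaled to library size after TMM normalization) against 0, 0.294 and 0 CPM in DPLBJ (log2 fold change 10.82, SE 0.95, adjusted p = 0.000622). DRD2, the dopamine receptor that restrains lactotrophs, stood at 93.1, 42.8 and 58.5 CPM against 0.252, 0.22 and 0.116 CPM (log2 fold change 8.36, SE 0.52, adjusted p = 0.000274). The estrogen receptor ESR1 was also present in the long bone, at 3.45, 4.26 and 2.95 CPM against 54.8, 46.4 and 49.4 CPM in the pituitary, and differed by 3.82 ± 0.27 (SE, adjusted p = 0.000344). CRHR1, the receptor of corticotropin releasing hormone, stood at 24.4, 10.3 and 21.6 CPM against 0, 0.147 and 0.579 CPM. The somatostatin receptor SSTR2 was not called, with 36, 32 and 12 reads against 0, 2 and 14 reads, and SSTR1, SSTR3, SSTR5 and AVPR1B had too few reads to be tested.

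Transcription factors that specify the pituitary and its cell types were called higher there in 16 of 17 tested cases (median log2 fold change 7.44, or 7.36 with LHX3 at its lower bound), and 14 to 17 were called when 1 library was left out. PITX1 stood at 204, 176 and 249 CPM against 0.168, 6.83 and 6.25 CPM, so that DPLBJ2 and DPLBJ3 held some and DPLBJ1 next to none. POU1F1, which is needed for somatotrophs, lactotrophs and thyrotrophs, stood at 157, 133 and 173 CPM against 0, 0.22 and 0.405 CPM (log2 fold change 9.37, SE 0.68, adjusted p = 0.000352). EYA1, a cofactor of homeobox proteins, was the member with the most reads in the long bone among those described here, at 4.79, 28.1 and 8.92 CPM against 171, 149 and 189.6 CPM (log2 fold change 3.61, SE 0.66, adjusted p = 0.00745).

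Genes of regulated secretion were higher in the pituitary as well. Of 9 granins and prohormone processing genes, 7 were called higher there and 0 lower (median log2 fold change 10.33), in each fit that left out a library. The granins CHGB and CHGA, acidic proteins of the granule core, stood at 13390.3, 9611 and 5409 CPM and 4246, 5534 and 4224 CPM in DPPJ. In DPLBJ they stood at 1.09, 10.7 and 1.1 CPM and 0.336, 2.28 and 1.16 CPM. SCG2 fell in the same order as POMC among the ponies, at 2812, 1550.2 and 576 CPM in DPPJ, against 0, 2.28 and 0.116 CPM in DPLBJ, and SCG3 stood at 1132, 1031 and 825 CPM against 1.68, 2.64 and 9.21 CPM. The members that were not called are enzymes used outside endocrine cells too. Carboxypeptidase E (CPE) overlapped between the tissues at 643, 730.2 and 343 CPM against 1407, 138 and 532 CPM (log2 fold change -0.27, SE 0.75, adjusted p = 0.806), and the amidating enzyme PAM stood at 452, 317 and 239 CPM against 216, 141 and 201 CPM (adjusted p = 0.0764).

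Of 15 tested genes of the exocytosis machinery, 13 were higher in the pituitary and 0 in the long bone (median 6.15). SNAP25, a membrane SNARE protein, stood at 506, 373 and 484 CPM against 0.252, 1.03 and 0.521 CPM, with a log2 difference of 9.54 ± 0.56 (SE, adjusted p = 0.000274). SYTL4, the granule protein granuphilin, had a smaller difference of 3.40 ± 0.37 (SE, adjusted p = 0.00116) from 252, 338 and 351 CPM against 44.3, 22.8 and 22.00 CPM. RIMS2 and CADPS, which prime granules for release, had log2 fold changes of 7.70 ± 0.41 (SE) and 9.58 ± 0.42 (SE). RAB27B was not called, at 3.33, 4.004 and 5.84 CPM against 4.71, 5.14 and 12.6 CPM.

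All 12 tested neuronal genes were higher in the pituitary (median 5.99), and 11 or 12 were called when 1 library was left out. The neurofilament NEFM stood at 474, 722 and 562 CPM against 15.8, 7.42 and 2.49 CPM and the microtubule protein MAP2 at 364, 326 and 295 CPM against 9.58, 1.54 and 3.24 CPM. UCHL1, a ubiquitin hydrolase of neurons and endocrine cells, stood at 231, 231 and 229 CPM against 21.4, 6.98 and 18.7 CPM, and STMN2, a tubulin-binding protein of growing axons, at 179.7, 173 and 163 CPM against 0.168, 0.0735 and 0.0579 CPM. The list summed to 1462, 1701 and 1469.6 CPM in the 3 DPPJ libraries, so it was even across the ponies, unlike the glial lists.

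Glial and posterior lobe genes differed strongly between the ponies. GFAP, the intermediate filament of astrocytes and pituicytes, had 361, 49589 and 2782 reads in DPPJ1, DPPJ2 and DPPJ3 against 4, 11 and 15 reads in DPLBJ (log2 fold change 10.16, SE 2.11, adjusted p = 0.0122), and it was not called without DPLBJ3 (10.39, adjusted p = 0.0518). The vasopressin gene AVP had 71, 4647 and 3 reads and OXT, the oxytocin gene, 0, 56 and 0 reads, against 2, 4 and 0 reads and 0, 0 and 0 in DPLBJ. AVP and OXT did not pass the filter on low counts, and in a fit without the filter AVP had a log2 difference of 8.91 ± 2.49 (SE, adjusted p = 0.0351). DPPJ2 was thus the library with the most posterior lobe transcripts, and it also held the most myelin transcripts. MBP, myelin basic protein, had 1558, 22943 and 6163 reads against 411, 656 and 1130 reads (adjusted p = 0.0347). MOBP, of oligodendrocyte myelin, had 29, 2492 and 503 reads against none, so most of its reads were in DPPJ2. Of the 6 tested genes in the list of posterior lobe hormones and pituicyte genes, 2 were higher in the pituitary, or 0 without DPLBJ3, 1 without DPPJ2 or DPLBJ2 and 3 without DPPJ3.

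The calls in the glial lists were few and changed with single libraries. Of 10 myelin genes, 5 were higher in the pituitary, or 2 without DPPJ2 or DPPJ3, 3 without DPLBJ2 and 1 without DPLBJ3. MBP was not called without DPPJ2, DPPJ3, DPLBJ1, DPLBJ2 or DPLBJ3 (1.74 to 3.50, adjusted p = 0.0656 to 0.0853), and MOBP was not called without DPPJ3, DPLBJ2 or DPLBJ3 (adjusted p = 0.0595 to 0.0741). Of 6 astrocyte genes, GFAP and S100B were higher in the pituitary and ALDH1L1, a folate enzyme, was higher in the long bone at 126, 312 and 120.3 CPM against 36.2, 55.3 and 17.95 CPM, but not without DPPJ1 or DPPJ3 (-2.34 to -2.02, adjusted p = 0.07 to 0.0833). S100B had a log2 difference of 5.66 ± 1.51 (SE, adjusted p = 0.029) and was not called without DPPJ2, DPPJ3, DPLBJ1, DPLBJ2 or DPLBJ3 (3.17 to 6.24, adjusted p = 0.0521 to 0.0761). The water channel AQP4 was not called, at 21.7, 436 and 32.1 CPM against 43.96, 9.404 and 29.2 CPM (adjusted p = 0.149). VIM, an intermediate filament of pituicytes that many mesenchymal cells also make, was higher in the long bone, at 4554, 4521 and 2821 CPM against 301, 493 and 259.9 CPM (log2 fold change -3.50, SE 0.40, adjusted p = 0.00145).

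Genes of pituitary stem and folliculostellate cells, the supporting cells of the anterior lobe, were higher in the pituitary in 5 of 9 cases and higher in the long bone in 1. The retinal dehydrogenases ALDH1A1 and ALDH1A2, which make retinoic acid, stood at 1117, 1242 and 1084 CPM and 67.6, 90.1 and 107 CPM in DPPJ. In DPLBJ they stood at 156, 204 and 114 CPM and 3.19, 4.63 and 4.98 CPM, and their log2 fold changes were 2.86 ± 0.30 (SE, adjusted p = 0.00109) and 4.37 ± 0.32 (SE, adjusted p = 0.000352). CXADR, a junction protein, stood at 15.7, 12.1 and 14.8 CPM against 0.168, 1.18 and 0.984 CPM (log2 fold change 4.16, SE 0.64, adjusted p = 0.00412). SOX9, which cartilage also uses, overlapped between the tissues, with 90, 153 and 30 reads against 7, 48 and 840 reads. ANXA1 was higher in the long bone by a log2 difference of -1.50 ± 0.40 (SE, adjusted p = 0.0301), which was not called without DPPJ1, DPPJ2 or DPLBJ3 (-1.44 to -1.19, adjusted p = 0.0842 to 0.119).

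In the long bone the bone matrix genes led. All 17 tested osteoblast and osteocyte genes were higher there (14% of all tested genes were), with a median log2 difference of -8.61, and 16 to 18 were called when 1 library was left out. COL1A2, a chain of type I collagen, the main protein of bone, stood at 11008, 1032 and 5277 RPKM in DPLBJ against 7.74, 10.4 and 3.69 RPKM in DPPJ (log2 fold change -9.92, SE 1.21, adjusted p = 0.00182). DPLBJ1 had the most and DPLBJ2 the least. SPARC, osteonectin, followed the same order at 8215, 968 and 4685 RPKM against 86.7, 159 and 44.9 RPKM. SPP1, osteopontin, stood at 3850.3, 3987 and 9192 RPKM against 26.1, 135 and 31.4 RPKM, and it was highest in DPLBJ3.

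IBSP, bone sialoprotein, had the largest difference of the abundant genes, with 65369, 26650 and 264890 reads in DPLBJ against 0, 8 and 3 reads in DPPJ (log2 fold change -15.45, SE 1.55, adjusted p = 0.000917). DMP1 and MEPE, matrix proteins of osteocytes, had 32842, 7160 and 87721 reads and 13303, 4873 and 5003 reads against 13, 8 and 4 reads and 2, 3 and 2 reads. CHAD, chondroadherin, a leucine-rich protein of cartilage and bone, had 10380, 1970 and 12521 reads against 0, 0 and 1 in DPPJ, a ratio of 38784-fold (95% exact counting interval 6960.3 to 1531950). Among the 3 long bone libraries the summed level of the osteoblast and osteocyte list was 106022, 19626 and 74872 CPM.

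The gene with the highest RPKM among those more than 8-fold higher in the long bone was listed as FAM117A (ENSECAG00000008346), at 34379, 3261 and 14313 RPKM in DPLBJ and 103, 123 and 97.3 RPKM in DPPJ (log2 fold change -7.62, SE 1.03, adjusted p = 0.0026). Its reads followed those of COL1A2 closely in the long bone. The ratio of FAM117A to COL1A2 reads was 1.15, 1.16 and 1.00 in DPLBJ1, DPLBJ2 and DPLBJ3 and 1.00 to 1.70 in the other 9 long bone libraries, against 4.89, 4.38 and 9.73 in DPPJ. COL1A1, the partner chain of COL1A2, was not found by symbol in the files. Whether reads of another gene were counted under the FAM117A symbol was not tested, and the symbol is given as the files have it.

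Cartilage genes were higher in the long bone, with DPLBJ1 the lowest long bone library for several of them. Of 16 tested cartilage matrix genes, 12 were called higher there and 0 in the pituitary (median log2 fold change -7.23). COL2A1, the collagen of hyaline cartilage, had 76, 66672 and 220890 reads in DPLBJ1, DPLBJ2 and DPLBJ3 against 60, 73 and 102 in DPPJ (log2 fold change -10.72, SE 2.42, adjusted p = 0.0163). DPLBJ1 was at the level of the pituitary. Aggrecan (ACAN), the cartilage proteoglycan, was distributed in the same way with 26, 5618 and 26058 reads against 4, 8 and 5. Both type XI collagen chains were in all 3 long bone libraries. COL11A2 had 31781, 8394 and 79020 reads (log2 fold change -10.60, SE 1.18, adjusted p = 0.00128), and COL11A1 had 2408, 6707 and 82868 reads (log2 fold change -7.16, SE 1.43, adjusted p = 0.0105). COL11A1 was not called without DPPJ2 or DPPJ3 (-7.10 to -6.83, adjusted p = 0.0515 to 0.0565). Of the type IX chains, COL9A3 was called with 54, 3507 and 29696 reads against 367, 122 and 61 (adjusted p = 0.048), but not without any single DPPJ library, DPLBJ2 or DPLBJ3 (-7.36 to -3.90, adjusted p = 0.0611 to 0.153), while COL9A1 and COL9A2, at 0, 2681 and 28242 reads and 33, 9627 and 59700 reads, were not. Without DPLBJ1, 15 of 16 cartilage genes were called higher in the long bone (17.9% of all genes tested then), and without DPPJ1, DPPJ2 or DPPJ3 4, 4 and 2 of 17 were (5.62%, 6.82% and 5.29% of all genes). COL2A1 and ACAN were among those lost in these last fits, COL2A1 without any single DPPJ library (-10.86 to -10.63, adjusted p = 0.07 to 0.0774) and ACAN without any single DPPJ library (-11.58 to -11.10, adjusted p = 0.0517 to 0.0628).

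Growth plate signals and their targets gave 10 of 13 genes higher in the long bone and 0 in the pituitary (median -4.04), with 6 without DPPJ3 and 7 to 11 without any single one of the others. MMP13, the collagenase of hypertrophic cartilage and bone, stood at 754, 859 and 3124 CPM against 0.757, 0.45 and 2.39 CPM in DPPJ (log2 fold change -10.34, SE 1.12, adjusted p = 0.00118). PTH1R, the receptor of parathyroid hormone and its related peptide, stood at 556, 373 and 296 CPM against 3.18, 3.96 and 1.86 CPM (log2 fold change -7.09, SE 0.47, adjusted p = 0.000318), and RUNX2, which drives osteoblasts and hypertrophy, at 161, 136 and 61.4 CPM against 0.959, 1.57 and 1.05 CPM (log2 fold change -6.63, SE 0.50, adjusted p = 0.000386). These 3 genes were present in DPLBJ1 at levels like those of DPLBJ2 or higher. MEF2C, which acts in hypertrophic chondrocytes and in other tissues, was also in the pituitary but lower, at 52.4, 53.6 and 35.6 CPM against 599, 253 and 308 CPM (log2 fold change -3.03, SE 0.40, adjusted p = 0.00246). COL10A1, the collagen of hypertrophic chondrocytes, had 0, 2106 and 57865 reads in DPLBJ and 1, 0 and 2 in DPPJ and did not pass the filter, with nearly all of its reads in DPLBJ3. NPR2, PTCH1 and PTHLH were tested and not called, with PTHLH at 9, 28 and 7 reads against 9, 23 and 23.

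Osteoclast genes were higher in the long bone in 7 of 10 cases and in 0 in the pituitary (median -4.20). ACP5, tartrate-resistant acid phosphatase, stood at 235, 1132 and 1558 CPM against 2.17, 0.63 and 1.297 CPM, with DPLBJ1 lowest (log2 fold change -9.48, SE 1.01, adjusted p = 0.00112). MMP9 stood at 287, 999 and 1262 CPM against 0.353, 1.08 and 0.365 CPM and the collagen-degrading protease cathepsin K (CTSK) at 418, 429.9 and 1366 CPM against 30.1, 24.3 and 24.2 CPM. ATP6V0D2, a proton pump subunit, differed by -4.56 ± 0.58 (SE, adjusted p = 0.00218). CLCN7, TNFRSF11A and CALCR were not called, and TNFRSF11A, the receptor of RANKL, stood at 12.4, 16.1 and 11.96 CPM against 13.6, 5.29 and 23.3 CPM.

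The small leucine-rich proteoglycans, which bind collagen fibrils, were higher in the long bone in 6 of 8 cases (median -4.25). The count was 4 without any single DPPJ library. Lumican (LUM) stood at 3052, 436 and 1458 CPM against 48.8, 35.9 and 36.4 CPM and biglycan (BGN) at 2442, 824 and 1255 CPM against 34.6, 29.3 and 20.1 CPM. Osteomodulin (OMD) had the largest difference of the 4 most abundant, -7.09 ± 1.14 (SE, adjusted p = 0.00482), and decorin (DCN) differed by -4.58 ± 0.50 (SE, adjusted p = 0.00123). OGN and ASPN were not called, and OGN stood at 20.9, 24.6 and 11.4 CPM against 126, 10.8 and 43.6 CPM.

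Collagen genes were called in both directions. Of 39 tested, 24 were higher in the long bone and 6 in the pituitary (median -3.13). Of all tested genes 14% and 15.3% were, so the pituitary count was near the share over all genes. The long bone count was 18, 17 and 16 of 40 without DPPJ1, DPPJ2 and DPPJ3. Those higher in the long bone included fibrillar chains of types I, II, V and XI. Basement membrane chains were among those higher in the pituitary, where COL4A5 stood at 27.3, 29.9 and 23.3 CPM against 3.61, 2.498 and 0.927 CPM (log2 fold change 3.53, SE 0.52, adjusted p = 0.00351) and COL4A3 at 13.7, 15.1 and 19.3 CPM against 0.252, 0.0735 and 0 CPM. COL19A1 stood at 32.7, 9.81 and 14.2 CPM against 1.43, 3.82 and 2.14 CPM and was not called without DPPJ1 (2.28, adjusted p = 0.0508). COL7A1, the anchoring fibril collagen, had a log2 difference of 1.47 ± 0.40 (SE, adjusted p = 0.0327) and was not called without any single DPPJ library, DPLBJ2 or DPLBJ3 (1.22 to 1.62, adjusted p = 0.0582 to 0.109).

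Among the matrix metalloproteinases 7 of 13 tested were higher in the long bone and 2 in the pituitary (median -4.40). The pituitary count was near the share over all tested genes (15.3%). MMP2, the gelatinase of fibroblasts, stood at 1042, 215 and 381 CPM against 14.6, 22.9 and 9.65 CPM and MMP14, which activates it, at 176, 100.4 and 251 CPM against 9.44, 9.13 and 5.51 CPM. The membrane-anchored MMP24 and MMP17 were higher in the pituitary, at 10.05, 11.5 and 16.1 CPM and 9.44, 10.98 and 12.2 CPM against 0.504, 0 and 0.463 CPM and 1.09, 1.25 and 1.04 CPM. WNT ligands had few reads in either tissue. Of 10 tested, 4 were higher in the long bone and 1 in the pituitary (14% and 15.3% of all tested genes were). The pituitary count was 0 without any single DPPJ library. The long bone count was 2 without DPPJ1 or DPPJ2 and 1 without DPPJ3 or DPLBJ3. WNT10B, which favours osteoblasts over adipocytes, had 110, 65 and 152 reads against 1, 3 and 0 (log2 fold change -6.82, SE 0.88, adjusted p = 0.00219), and WNT16, higher in the pituitary, had 23, 28 and 24 reads against 4, 0 and 2 and was not called without any single DPPJ library or DPLBJ3 (2.75 to 3.03, adjusted p = 0.112 to 0.131).

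HOX genes, which give cells of the trunk and limbs their position along the body axis, had few or no reads in the pituitary. Of 33 HOX genes found, 14 had enough reads to be tested, and all 14 were called higher in the long bone. With at most 21 reads in a DPPJ library, nearly all of them passed the filter through their long bone reads, so their direction was largely set by the filter. HOXD8 had 955, 234 and 677 reads in DPLBJ against 4, 7 and 2 in DPPJ (log2 fold change -7.80, SE 0.83, adjusted p = 0.00112) and HOXA10 380, 205 and 348 reads against 1, 4 and 14 (log2 fold change -6.32, SE 0.79, adjusted p = 0.00202). HOXD10 had 638, 70 and 236 reads against 2, 0 and 0, a ratio of 736-fold (95% exact counting interval 203 to 6087). HOXA3, with 231, 71 and 110 reads against none, was at least 75.98-fold higher. The whole family summed to 2.32, 2.699 and 2.35 CPM in DPPJ and 287, 108 and 153 CPM in DPLBJ. Of the 19 HOX genes that were not tested, HOXC9 and HOXC8 had 172 and 31 reads in DPLBJ2 and 115 and 30 in DPLBJ3 but 0 in DPLBJ1.

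Erythroid, neutrophil and megakaryocyte transcripts were in DPLBJ2 and DPLBJ3 and next to absent from DPLBJ1. The beta globin gene HBB had 0, 79427 and 39999 reads in DPLBJ1, DPLBJ2 and DPLBJ3 and 0, 11 and 1 in DPPJ (log2 fold change -13.83, SE 3.50, adjusted p = 0.0244), and it was not called without any single DPPJ library or DPLBJ3 (-16.52 to -13.31, adjusted p = 0.0543 to 0.107). ALAS2, the erythroid enzyme of heme synthesis, had 0, 12568 and 10515 reads against 0, 4 and 1, and HEMGN 7, 6589 and 8149 reads against 0, 9 and 2. Because they need reads in 3 libraries, most erythroid genes did not pass the filter. Only 3 of 11 found were tested and 2 were called, but without DPLBJ1 all 11 were tested and called higher in the long bone, without DPLBJ2 1 of 3 and without DPLBJ3 0 of 3 were, and without any single DPPJ library 0 of 11 were. Without the filter, ALAS2 had a log2 difference of -12.57 ± 2.67 (SE, adjusted p = 0.0112). Of the 50 genes above 10 CPM in both other libraries and at most 3 reads in DPLBJ1, 32 were likewise not tested.

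Neutrophil genes were called higher in the long bone in 8 of 10 tested cases, in 12 of 12 without DPLBJ1, in 5 and 4 of 10 without DPLBJ2 and DPLBJ3, and in 0, 1 and 0 of 12 without DPPJ1, DPPJ2 and DPPJ3. S100A12, a calcium-binding protein of granulocytes, had 44, 62390 and 9208 reads against 2, 35 and 12 (adjusted p = 0.0194), LTF, lactoferrin of neutrophil granules, 83, 51159 and 13110 reads against 7, 16 and 1 (adjusted p = 0.0121), and myeloperoxidase (MPO) 7, 20161 and 4685 reads against 8, 14 and 19 (adjusted p = 0.0212). DPLBJ2 was the highest long bone library in each and DPLBJ1 the lowest. S100A12 was not called without any single DPPJ library (-12.46 to -10.71, adjusted p = 0.0616 to 0.0908), LTF was not without DPPJ1 or DPPJ3 (-11.97 to -11.45, adjusted p = 0.0593 to 0.0641), and MPO was not without any single DPPJ library (-10.14 to -9.71, adjusted p = 0.0829 to 0.0931).

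Lymphocyte genes gave fewer calls. Of 7 tested B cell genes 3 were called higher in the long bone, among them MS4A1 with 25, 254 and 108 reads against 9, 20 and 7. Of 9 T cell genes 1 was, near the share over all tested genes (14%). It was CD8A, with 60, 84 and 265 reads against 28, 32 and 42. MS4A1 was not called without DPPJ1 or DPPJ3 (-3.93 to -3.73, adjusted p = 0.0812 to 0.0819), and CD8A was not without any single DPPJ library (-2.62 to -2.48, adjusted p = 0.0593 to 0.0666). Without DPLBJ1, 8 of 11 B cell genes and 5 of 9 T cell genes were called, and without DPPJ1 or DPPJ3 2 of 11 B cell genes and 0 of 9 T cell genes were. A gene without a symbol that the file describes as an immunoglobulin gamma 1 heavy chain constant region (ENSECAG00000003774), looked up after its values were seen, had 268, 100488 and 40139 reads in DPLBJ against 73, 108 and 267 in DPPJ (log2 fold change -8.97, SE 1.98, adjusted p = 0.0152). It was not called without any single DPPJ library (-9.58 to -8.71, adjusted p = 0.0639 to 0.0741). The only testable megakaryocyte gene, ITGA2B, was not called (adjusted p = 0.134), while 4 of 4 were without DPLBJ1. Of 8 macrophage genes 2 were called, or 6 without DPLBJ1 and 1 without any single one of the others. These were CD68 at 95.2, 219.9 and 370.3 CPM against 20.4, 14.3 and 10.3 CPM and CD163 at 119, 299.7 and 259 CPM against 72.8, 123 and 62.3 CPM, which was not called without any single DPPJ library, DPLBJ2 or DPLBJ3 (-1.74 to -1.14, adjusted p = 0.0617 to 0.168). The complement gene C1QB overlapped at 247, 198 and 133 CPM against 85.1, 451 and 299 CPM.

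Adipocyte genes, by contrast with erythroid and neutrophil genes, were in all 3 long bone libraries. All 8 tested were higher there (median -7.68) and 7 to 9 when a library was left out. The fatty acid binding protein FABP4 stood at 3494, 2147 and 1332 CPM against 0.808, 1.57 and 11.3 CPM, with DPLBJ1 highest (log2 fold change -8.98, SE 1.30, adjusted p = 0.00326). Adiponectin (ADIPOQ) stood at 325, 152 and 167 CPM against 0.202, 0.045 and 0.243 CPM (log2 fold change -10.29, SE 0.66, adjusted p = 0.000299), and the regulator PPARG at 97.7, 165 and 75.4 CPM against 3.33, 2.699 and 2.84 CPM (log2 fold change -5.25, SE 0.38, adjusted p = 0.000352). CIDEC, a lipid droplet protein, had 1361, 1034 and 458 reads against none and was at least 532-fold higher in the long bone.

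**Figure D3:**
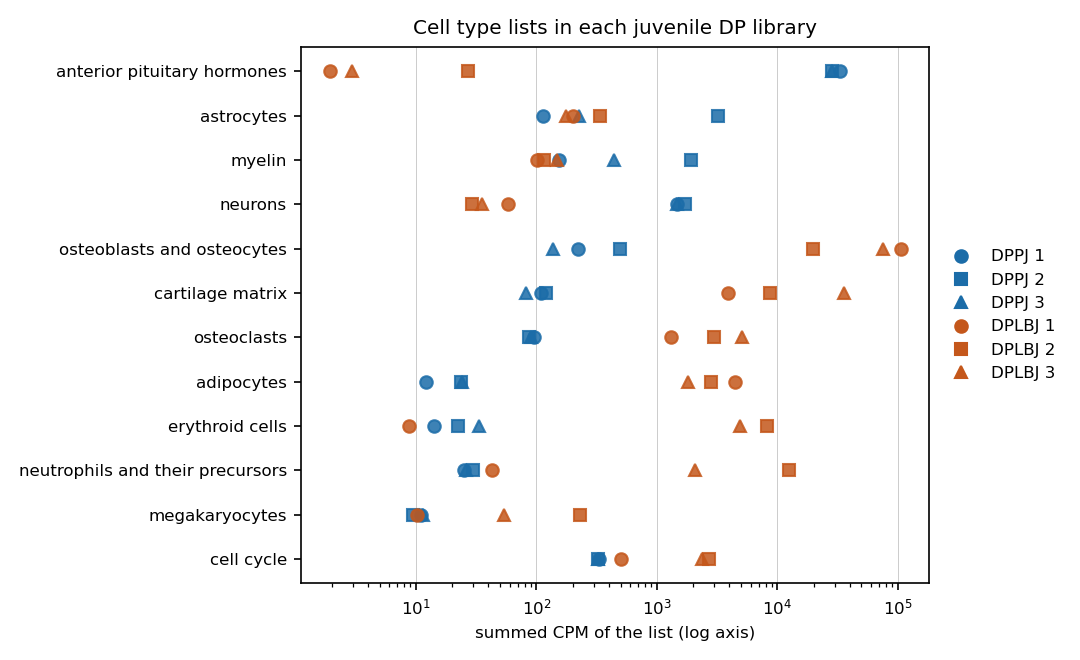
Summed CPM of 12 marker lists (log axis) in each of the 6 libraries, with DPPJ in blue and DPLBJ in orange and the replicate given by the marker shape. DPLBJ1 lies with the pituitary libraries for the erythroid (8.83 CPM), neutrophil (42.9 CPM) and megakaryocyte lists but with the other long bone libraries for the osteoblast and adipocyte lists, and DPPJ2 is the highest pituitary library for the astrocyte (3216 CPM) and myelin (1912 CPM) lists.

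Endothelial genes were in both tissues, with 8 of 13 higher in the long bone and 0 in the pituitary (median -1.76), or 5 without TMM normalization. VWF, von Willebrand factor, stood at 406, 677 and 154 CPM against 36.8, 51.8 and 63.4 CPM and PECAM1, a junction protein, at 532, 314 and 287 CPM against 86.4, 76.2 and 68.7 CPM. PLVAP, of fenestrated vessels, was not called and stood at 316, 247 and 243 CPM against 387, 330.0 and 315 CPM. Striated muscle genes had few reads, and the list summed to 46.9, 44.6 and 44.4 CPM in DPPJ and 44.3, 101 and 50.6 CPM in DPLBJ. Of 9 tested, 2 were higher in the pituitary, ACTA1 and MYH1, and 1, DES, in the long bone. Of all tested genes 15.3% and 14% were. ACTA1, skeletal muscle actin, had 220, 248 and 177 reads against 14, 5 and 5 (log2 fold change 4.02, SE 0.64, adjusted p = 0.00462). MYH1, a myosin heavy chain, had 16, 26 and 38 reads against 0, 4 and 3 and was not called without any single DPPJ library or DPLBJ3 (2.58 to 3.03, adjusted p = 0.101 to 0.146). DES, desmin, stood at 37.4, 56.7 and 30.9 CPM against 17.3, 19.97 and 20.2 CPM and was not called without any single DPPJ library or DPLBJ2 (-1.15 to -0.84, adjusted p = 0.0218 to 0.121), in the last of these because the fold was under 2.

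Cell cycle genes were higher in the long bone in 18 of 19 cases (median -3.49). The count was 19 without DPLBJ1, 10 to 12 without either other long bone library, 4 or 5 when a DPPJ library was left out and 13 without TMM normalization. TOP2A, the topoisomerase of dividing cells, stood at 48.4, 718 and 477 CPM against 6.01, 4.45 and 0.973 CPM (log2 fold change -6.77, SE 1.22, adjusted p = 0.00713) and was called in each reduced fit. MCM6 and MCM4, subunits of the replication helicase, stood at 133, 289 and 368 CPM and 65.1, 140.5 and 257 CPM against 85.2, 90.2 and 83.7 CPM and 37.5, 33.7 and 36.8 CPM. MCM6 was not called without any single DPPJ library or DPLBJ3 (-1.63 to -1.30, adjusted p = 0.0516 to 0.0886), nor MCM4 without any single DPPJ library (-2.12 to -2.05, adjusted p = 0.0727 to 0.0763). In DPLBJ1, the list summed to 504 CPM against 2706 and 2368 CPM in DPLBJ2 and DPLBJ3 and 325 to 332 CPM in DPPJ, so the level of these genes moved with that of the erythroid and neutrophil lists across the long bone libraries. The part of marrow cells in it was not tested.

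The GH receptor and the IGF axis are the path by which GH reaches bone, and 7 of 14 tested members were higher in the long bone and 1 in the pituitary. GHR, the GH receptor, stood at 199, 107 and 73.5 CPM in DPLBJ against 27.1, 24.8 and 32.02 CPM in DPPJ, with no overlap (log2 fold change -2.18, SE 0.39, adjusted p = 0.00712). JAK2, the kinase bound to it, stood at 156, 158 and 158 CPM against 44.9, 53.9 and 49.9 CPM (log2 fold change -1.67, SE 0.19, adjusted p = 0.00142). IGF1, named here after its values were seen, stood at 69.3, 30.6 and 17.5 CPM against 1.62, 1.62 and 0.811 CPM (log2 fold change -4.86, SE 0.64, adjusted p = 0.00242), and DPLBJ1 had the most. IGFBP4 stood at 62.5, 188 and 148 CPM against 24.4, 20.3 and 21.2 CPM (log2 fold change -2.60, SE 0.42, adjusted p = 0.00477). IGFBP2 had a log2 difference of -2.62 ± 0.73 (SE, adjusted p = 0.0337) and was not called without any single DPPJ library, DPLBJ2 or DPLBJ3 (-3.14 to -1.70, adjusted p = 0.0613 to 0.119). PRLR, the prolactin receptor, was the member higher in the pituitary, at 21.8, 23.8 and 37.9 CPM against 2.69, 4.78 and 1.16 CPM (log2 fold change 3.28, SE 0.56, adjusted p = 0.00612). IGF1R, IGF2R and STAT5B were not called, and IGF1R stood at 26.5, 34.5 and 46.4 CPM against 32.03, 84.5 and 30.1 CPM. The list's median log2 fold change was -0.92, and without DPPJ1, DPPJ2 or DPPJ3 4, 5 and 4 members were called higher in the long bone.

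Among the genes that every cell uses, few nuclear oxidative phosphorylation and ribosomal protein genes were called, against 29.4% of all tested genes. Of 13 chaperones of the endoplasmic reticulum, where hormones and collagens fold, 3 were higher in the pituitary and 0 in the long bone. Without TMM normalization these counts were 5 and 0. Of all tested genes 15.3% and 14% were in the main fit, so the pituitary count was near the share over all genes. HSPA5, the main such chaperone, stood at 2067, 1475 and 1846 CPM against 371, 651 and 576 CPM (log2 fold change 1.75, SE 0.32, adjusted p = 0.00723), HYOU1 at 584, 406 and 417 CPM against 99.4, 102 and 126 CPM and DNAJB9 at 128, 66.4 and 75.5 CPM against 17.1, 8.82 and 22.9 CPM. The disulfide isomerase PDIA3 and calreticulin (CALR) were not called, the latter at 1921, 1456 and 1403 CPM against 976, 1572 and 1181 CPM. Of 56 nuclear subunits of oxidative phosphorylation, 3 were higher in the pituitary and 1, NDUFV3, in the long bone (median 0.06), and the first count was 8 without DPLBJ2, 1 without DPLBJ3 or DPPJ2 and 0 without DPPJ1 or DPPJ3. Among 58 ribosomal protein genes 1 was higher in the pituitary, RPL7A, and 3 in the long bone, RPL4, RPL13 and RPS2, and the last count was 0 without TMM normalization, 13 with DESeq2 (18.2% of all genes), 12 without DPLBJ1, 1 without DPLBJ2 and 0 without any single DPPJ library. The median of the ribosomal protein genes was -0.62, or -0.26 without TMM normalization, and they summed to 57142, 50298 and 47711 CPM in DPPJ against 67928, 131190 and 60426 CPM in DPLBJ, where DPLBJ2 stood out. Since many of these genes have near-identical copies in the genome, their counts are uncertain.

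Immediate early genes, which respond fast to handling and stress, were not called in 8 of 12 cases. Over all tested genes, 29.4% were called, near the share here, and 14% were higher in the long bone. JUN, DUSP1, EGR3 and EGR2 were higher in the long bone, with JUN at 143, 79.5 and 93.6 CPM against 25.4, 47.6 and 18.6 CPM (log2 fold change -1.79, SE 0.42, adjusted p = 0.0182), although not without DPPJ1 or DPPJ3 (-1.64 to -1.50, adjusted p = 0.0654 to 0.0823). The count there was 1 without DPPJ1, 0 without DPPJ3 and 4 without any single one of the others. EGR1 and FOS stood at 84.4, 94.6 and 75.6 CPM and 25.00, 49.4 and 43.2 CPM in DPPJ against 119, 73.03 and 97.98 CPM and 18.1, 56.4 and 64.7 CPM in DPLBJ. Among 8 genes often used as references, both rows listed as ACTB were higher in the long bone and the other 6 were not called, while without any single DPPJ library 0 of 8 were called. HPRT1 and SDHA stood at 37.2, 45.3 and 30.6 CPM and 200.1, 226 and 174 CPM against 18.7, 34.8 and 44.6 CPM and 187, 135 and 196 CPM.

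Low counts of hormone genes in the long bone were spread unevenly over its libraries. In DPLBJ2 the levels of GH, PRL, CHGB, CHGA, POMC, CG and SCG2 were 0.063%, 0.108%, 0.112%, 0.0488%, 0.156%, 0.141% and 0.138% of the DPPJ mean. In DPLBJ1 and DPLBJ3 the same genes stood between 0% and 0.0337% of it. HSPA5, CLU and ALDH1A1, which the long bone also had in amount, stood at 9.93% to 51.2% of the DPPJ mean in each long bone library. DPLBJ2 was thus the highest long bone library for each of these 7 hormone and granin genes. The source of these reads was not tested.

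The same tissue contrast was set beside that of juvenile MHs and of adult DPs. In fits of their own, 24.2% of the tested genes were called in juvenile MHs, 34.5% in adult DPs and 15.4% in adult MHs. These shares rest on libraries of very different makeup. The 6 hormone genes GH, PRL, POMC, CG, FSHB and TSHB took 4.12%, 3.49% and 3.57% of all reads in DPPJ1, DPPJ2 and DPPJ3. In the libraries labelled MHPJ1, MHPJ2 and MHPJ3 they had 3, 97 and 2 reads in all. POU1F1 had 0, 3 and 0 reads there and AVP, which had 22751 in DPPA1, had 1, 0 and 1, while GFAP had 38302, 581 and 26664 and MBP had 55870, 31012 and 37280. DPPA1 and MHPA1 had 1274 and 16 reads of the 6 hormone genes, against 280271 to 579396 in the other 4 adult pituitary libraries. The libraries labelled MHPJ were thus without the transcripts that define the anterior pituitary, and no MHPJ library with them was at hand. A difference between DPs and MHs and a difference in the tissue that was sampled cannot be told apart here.

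**Figure D4:**
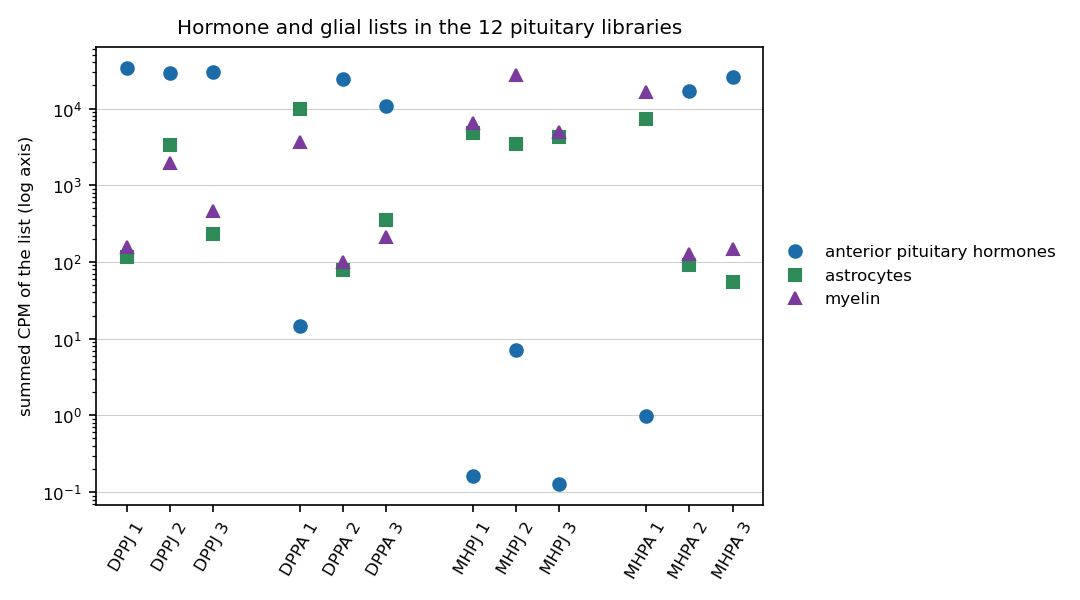
Summed CPM (log axis) of the lists of anterior pituitary hormones (circles), astrocytes (squares) and myelin (triangles) in the 12 pituitary libraries of the series. The hormone list lies at 33939, 29266 and 29508 CPM in DPPJ1, DPPJ2 and DPPJ3 and at 0.164, 7.15 and 0.127 CPM in the libraries labelled MHPJ1, MHPJ2 and MHPJ3, in which the myelin list lies between 4915 and 27580 CPM.

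With that limit, 748 of 15417 genes (4.85%) differed between juvenile DPs and the horses labelled as juvenile MHs in their tissue contrast (edgeR's quasi-likelihood test of the interaction over 12 libraries, same call rule). The contrast was more positive in DPs for 277 genes (1.8%) and more negative for 471 (3.06%), and the order turned without TMM normalization, with 666 and 346. Of the 5 hormones 3 had a more positive contrast in DPs, namely GH with a difference of 12.17 (adjusted p = 0.0239) on the log2 scale, PRL with 11.16 (adjusted p = 0.0239) and POMC with 10.13 (adjusted p = 0.046). Cartilage matrix genes gave 11 of 18 with a more negative contrast and erythroid genes 8 of 11, and in the long bone COL2A1 had 24, 141 and 69 reads and ALAS2 had 0, 21 and 23 in MHLBJ1, MHLBJ2 and MHLBJ3. Leaving out single libraries moved the number of DEGs from 26 without DPPJ3 to 1817 without MHPJ2.

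The adult DP pituitary group was of mixed makeup, with 1274 reads of the 6 hormone genes in DPPA1 against 579396 in DPPA2 and 280271 in DPPA3. With such a spread, few calls do not show that the juvenile and adult contrasts are alike. Between juvenile and adult DPs, the tissue contrast differed for 1 of 15389 genes (0.0065%). By unadjusted P under 0.05 with a fold change over 2, 877 (5.7%) did, and DESeq2 called 57. The 1 gene called in the main fit was SLIT1, an axon guidance ligand. It had 1218, 1181 and 1976 reads in DPPJ and 3, 7 and 4 reads in DPLBJ against 1199, 1444 and 1050 in DPPA and 76, 60 and 77 in DPLBA, so the adult long bone libraries held more of it than the juvenile ones. The contrast was more positive in juveniles by 3.84 on the log2 scale (adjusted p = 0.0453), and was not called without any single DPPJ, DPPA or DPLBA library or without DPLBJ3 (3.58 to 4.01, adjusted p = 0.0533 to 0.374).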

How the data were processed

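Pituitary and long bone epiphysis RNA of juvenile DPs, 3 libraries per tissue, was analysed from tables of read counts and of RPKM per gene. Libraries were directional and depleted of ribosomal RNA. The deposited counts were whole numbers per Ensembl gene and are raw. The authors' RPKM values are reads scaled to gene length and library size. The sources differ on how the counts were made. The study's methods give Illumina GAIIx single-end reads, trimming with removal of reads under 30 bp, quantification with Salmon on EquCab 3.0 and edgeR, whereas the labels name NextSeq 500, paired ends, and the submitters' processing notes name bcl2fastq, TopHat2 and edgeR, without versions. Which of them made the counts was not settled, and how reads shared by near-identical genes were divided is not given in the sources used here.

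Counts were fitted with edgeR 4.0.16 (R 4.3.3; TMM normalization, filterByExpr with a minimum count of 10, quasi-likelihood F-test) over the 6 libraries, after the call rule in the study's methods but with adjusted in place of unadjusted P, which called 5346 genes (36.8%). A gene was a DEG with a Benjamini-Hochberg adjusted p under 0.05 and a fold change over 2. CPM are counts scaled to library size after TMM normalization. Differences of the tissue contrast between breeds and stages were tested as interactions over 12 libraries each. For genes at 0 reads in a tissue, fold changes are lower bounds against 3 reads in each library, and for genes with 1 to 3 reads they are ratios of summed reads with exact 95% counting intervals. Both cover counting error only. Of 4270 DEGs, 412 (9.65%) had no symbol and entered no list and no ranking of named genes. Alternatives were DESeq2 1.42.0, its size factors, limma 3.58.1 on log2(RPKM + 1) and log2(RPKM + 0.1), no TMM, a minimum count of 50, no filter, all 12 juvenile or all 24 libraries, a replicate block and leaving out each library. The scripts were tested on simulated data.

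The 35 lists of genes, the comparisons and the members were chosen with earlier results of these data known. Named genes were the 10 most abundant in RPKM at over 8-fold in each direction, the 5 with the largest change in each direction, up to 4 members of each list called in each direction by mean CPM together with members stated as not called, the anterior pituitary hormones, and 5 genes for each direction of an interaction. Genes outside this rule are marked where they appear or are listed only by their reads. Some list members are counted but not reported by name here. Correlations across libraries are not given, since the libraries fall into separate tissue clusters. Sequences and coordinates are not used here.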

Additional observations from a re-analysis of the deposited data

Results flagged for a closer look

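The results below are genes whose tissue contrast differed between juvenile DPs and the horses labelled as juvenile MHs, or between juvenile and adult DPs, by a test of that difference (edgeR's quasi-likelihood test of the interaction, Benjamini-Hochberg adjusted). With 3 libraries in each group, no group was large enough for a test of single libraries that lie far from the rest. All comparisons with MHs rest on 3 MHPJ libraries with next to no anterior pituitary hormone reads, and the part of that in each difference was not tested. The reads in DPPA1, the DP library that also lacked them, are given beside each gene.

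In 5 genes the contrast was more positive in DPs. The estrogen receptor ESR1 had 1086, 1032 and 1218 reads in DPPJ and 41, 58 and 51 in DPLBJ, against 9, 8 and 16 in MHPJ and 74, 239 and 90 in MHLBJ, and its contrasts differed by 7.06 on the log2 scale (adjusted p = 0.00157). It had 181 reads in DPPA1 and 901 and 692 in DPPA2 and DPPA3. PPP1R17 had 668, 677 and 927 reads in DPPJ and 10, 9 and 21 in MHPJ, with none in DPLBJ, a fitted difference of 11.7 (adjusted p = 0.00157) that depends on how zeros are treated. Unlike the others, it stayed high in DPPA1, with 670 reads. MSX1, a homeobox factor, had 3548, 4106 and 4943 reads in DPPJ, 49, 56 and 52 in MHPJ and 641 in DPPA1 (difference 6.18, adjusted p = 0.00157). ALDH1A2, which makes retinoic acid, had 1338, 2002 and 2651 reads in DPPJ, 80, 30 and 44 in MHPJ and 347 in DPPA1 (difference 5.52, adjusted p = 0.00157). SYTL4, granuphilin, had 4986, 7521 and 8652 reads in DPPJ, 236, 141 and 237 in MHPJ and 421 in DPPA1 (difference 4.41, adjusted p = 0.00157). The long bone reads enter each difference too. PPP1R17 had 7, 11 and 16 reads in MHLBJ. In DPLBJ against MHLBJ, MSX1 had 283, 308 and 126 against 347, 558 and 459. ALDH1A2 had 38, 63 and 86 against 67, 132 and 221, and SYTL4 had 527, 310 and 380 against 289, 602 and 640. These 5 genes were picked by the lowest p of this test, so the lack of overlap between their DPPJ and MHPJ libraries adds no support.

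In another 5 genes the contrast was more negative in DPs. EHD3, an endosomal protein, had 256, 289 and 261 reads in DPPJ and 419, 551 and 953 in DPLBJ, against 1342, 514 and 876 in MHPJ and 139, 366 and 213 in MHLBJ (difference -4.04, adjusted p = 0.00237), and 1122 in DPPA1. ARRB1, beta-arrestin 1, had 197, 246 and 232 reads in DPPJ, 1025, 313 and 852 in MHPJ and 1035 in DPPA1 (difference -3.30, adjusted p = 0.0102). C11orf24 had 97, 92 and 127 reads in DPPJ, 347, 186 and 345 in MHPJ and 337 in DPPA1 (difference -3.63, adjusted p = 0.0075). MAST3, a kinase, had 951, 1145 and 1280 reads in DPPJ, 2933, 2012 and 3738 in MHPJ and 2194 in DPPA1 (difference -2.63, adjusted p = 0.00802). GRAMD1B, a sterol transporter, had 530, 627 and 647 reads in DPPJ, 1512, 1513 and 966 in MHPJ and 663 in DPPA1 (difference -3.34, adjusted p = 0.00802). These differences also hold the long bone reads, given here as DPLBJ against MHLBJ. ARRB1 had 405, 557 and 673 against 188, 487 and 328, and C11orf24 had 291, 242 and 613 against 143, 146 and 160. MAST3 had 566, 912 and 768 against 501, 724 and 542, and GRAMD1B had 261, 394 and 721 against 121, 238 and 220. In DPPA2 and DPPA3, MAST3 had 938 and 1172 reads and GRAMD1B 532 and 591. Neither gene was called between the tissues of juvenile DPs (log2 fold change -0.07 and -0.19, adjusted p = 0.836 and 0.646 in edgeR's quasi-likelihood test).

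The tissue contrast of SLIT1 differed between juvenile and adult DPs by 3.84 (adjusted p = 0.0453), with 3, 7 and 4 reads in DPLBJ and 76, 60 and 77 in DPLBA. It was not called without any single DPPJ, DPPA or DPLBA library or without DPLBJ3 (adjusted p = 0.0533 to 0.374 in the same test). Nor was it called with DESeq2 size factors (adjusted p = 0.0664) or with the replicate block (adjusted p = 0.851).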

How the results depend on the processing

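The number of genes higher in the pituitary stayed within 1.5 times 2229 under all 17 alternatives, and that of genes higher in the long bone under 12 of 17. The exceptions were limma on log2(RPKM + 0.1) and log2(RPKM + 1), with 1343 and 1158 genes, and each fit without a DPPJ library. Leaving out 1 library gave 2301 to 5355 DEGs, of which 793 to 2706 were higher in the long bone.

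The counts of the breed and stage differences changed under most settings. The breed difference gave 26 to 1817 genes with 1 library left out (17 to 857 positive and 9 to 1111 negative), 2437 with DESeq2 (794 and 1643), 666 positive without TMM normalization and 3388 by unadjusted P (1062 and 2326). The stage difference gave 0 genes with DESeq2 size factors (0 positive), 57 with DESeq2 (16 and 41), 877 by unadjusted P (451 and 426) and 0 to 6 with 1 library left out (0 to 1 positive and 0 to 5 negative). The causes were not tested.

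Whether equal replicate numbers mark the same pony could not be told from the counts. The correlation of deviations from the group mean was 0.0101, 0.0424 and -0.0291 for libraries with the same number, none over 0.1. Deviations also hold differences in the makeup of the tissue pieces, so low values cannot decide this. With the replicate number as a block, 3258 genes were called in the tissue contrast (1875 and 1383), 26 in the breed difference (19 and 7) and 0 in the stage difference (0 positive). Not every library correlated best with its own number.

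The share of reads in abundant genes was 22.8% in DPPJ and 25.2% in DPLBJ over 50 genes, and 16.6% of the summed RPKM in DPPJ over 10. Of 8070 gene values under alternatives, 2 changed sign and passed the threshold, NDUFA3 and ATP5I, positive without DPLBJ2 (1.02 and 1.27) and at their lowest without DPLBJ3 (-0.72 and -0.51), while 505 lost and 224 gained significance.

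Of 99 genes given an 8-fold change in simulated counts, 68.7% were recovered in the tissue contrast and 26.3% in the breed difference, and of those given a 2-fold change 0% and 1%. Far fewer genes were changed in the simulation than the 29.4% called in the tissue contrast, and a call needed a fitted fold over 2. These rates are therefore not the power of the fits reported here.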

Other observations

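A gene without a symbol that the file describes as alpha-1-acid glycoprotein 2-like (ENSECAG00000007625), an acute phase protein, was looked up after its values were seen. It had 71, 87314 and 11014 reads in DPLBJ1, DPLBJ2 and DPLBJ3 and 12, 14 and 19 in DPPJ (log2 fold change -11.76, SE 2.53, adjusted p = 0.0138). It was not called without any single DPPJ library (-11.90 to -11.72, adjusted p = 0.0624 to 0.0696). Its order over the long bone libraries was that of the neutrophil genes S100A12 and MPO, with DPLBJ2 highest and DPLBJ1 lowest.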
